A study of Homo sapiens with 6 samples.

Results

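The mitochondrial ribosomal protein (MRP) genes were taken as the rows of the count table whose Ensembl identifier maps to a protein-coding symbol beginning with MRPL or MRPS. They numbered 78 of 40295 rows, and all 78 passed the filter on low counts. By the position of the protein in the mitochondrial ribosome, 51 encode proteins of the large subunit and 26 proteins of the small subunit. MRPS30 and MRPS18A count with the large subunit despite their symbols, and MRPS36, now known as a component of the alpha-ketoglutarate dehydrogenase complex, was placed with neither. The cells were HDQ-P1, a human breast carcinoma line. The cells of 3 libraries were exposed to 1 µM Y-320 for 48 h, and those of the other 3 libraries were untreated, with no solvent described. Y-320 is a phenylpyrazoleanilide that the study examined as an enhancer of aminoglycoside-induced readthrough of premature termination codons. The comparison asks which transcripts differ after exposure to Y-320 alone in this single line.

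Mitochondrial ribosomes translate the mRNAs of mitochondrial DNA, which encode core subunits of the respiratory chain and of ATP synthase. Their rRNAs come from mitochondrial DNA, whereas all their proteins are encoded in the nucleus, made in the cytosol and imported. Some of these proteins have bacterial counterparts, and others were added during the evolution of mitochondria. The decoding site of the mitochondrial ribosome resembles the bacterial one, which is where aminoglycosides bind.

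The 6 libraries held 21045401 to 22740535 estimated counts, and the MRP genes together took 0.391% to 0.402% of each library. The labels do not say that libraries of a group came from separate cultures, so p-values measure the spread between these libraries, which may be technical. All values below are CPM, that is counts scaled to a common library size, after scaling with edgeR's TMM factors, unless a length is named. Such values are relative to the other transcripts of a library, and the amount of RNA per cell was not measured. Words such as rose and fell are meant in this relative sense. A gene was called higher or lower when edgeR's quasi-likelihood test, adjusted by Benjamini-Hochberg over 16580 genes, gave an adjusted p under 0.05. The epithelial markers were present in both groups, with EPCAM at 304.5 ± 6.90 CPM in untreated cells and at 396.0 ± 8.96 CPM after Y-320 (mean ± SD of 3 libraries). KRT8, KRT18, KRT19 and KRT7 fell by 1.02, 0.86, 0.62 and 0.69 on the log2 scale and CDH1 by 0.11, so the summed epithelial markers went from 11192 to 6866 CPM (6 of 6 called, 1 of them higher). Among markers of leukocytes, endothelium and fibroblasts, CD3E was at 0.0773 and PTPRC at 0.769 CPM in untreated cells, whereas DCN was at 1.23, PECAM1 at 3.98, CDH5 at 13.6, COL1A1 at 49.4 and COL1A2 at 148.0 CPM. The markers of this list summed to 205 to 229 CPM in untreated and 121 to 136 CPM in Y-320 libraries, with PECAM1 called higher, CDH5, COL1A1 and COL1A2 called lower, PTPRC and DCN not called and CD3E below the filter. In bulk libraries, fewer cells of a type and less RNA per cell cannot be told apart, and the part of the marker changes in the MRP values was not tested.

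As a share of the library, the RNA of MRP genes as a whole hardly moved, while single genes moved in both directions by small amounts. With Y-320, 16 of 78 members were called higher and 28 lower (edgeR, adjusted p under 0.05). Over all genes tested, 26.2% were called higher and 25.4% lower, against 20.5% and 35.9% of the members. The median log2 fold change was -0.03 for the members and 0.00 for all genes tested. The members varied less than all genes tested, with a standard deviation of 0.21 on the log2 scale across members and 0.51 across all genes. Neither this nor the comparisons of size that follow were matched for level. Of the members, 77 had an untreated mean of at least 10 CPM, whereas the genes tested reach down to the filter on low counts, where fold changes are noisier. The changes of 66 members (84.6%) were under 0.25 in size, as were those of 56.2% of all genes tested. Only MRPL55 and MRPL17, or 2.56% of members, were both called and changed by at least 0.5, a size that 15.7% of all genes reached with a call. No member fell by 0.5 or more (0 with edgeR at an unadjusted p under 0.05, and 0 with DESeq2 or limma-voom). The lower calls depended on the tool, since DESeq2 called 15 of 78 members lower and 14 higher. DESeq2 called 19.8% of all genes lower and 20.5% higher, so with it the members' share of falls was no larger than that of all genes.

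Counted without a model, the 3 Y-320 libraries all lay above the 3 untreated libraries for 19 members and below them for 30, and the groups overlapped for 29. Over all genes tested the corresponding shares were 29.8% above and 29.4% below. The libraries of the groups overlapped for 1 called member, MRPL57, a large subunit protein, whose untreated libraries were at 22.8, 24.6 and 23.9 CPM and Y-320 libraries at 22.9, 21.1 and 19.4 CPM. For the 34 members that were not called, the 95% interval of the log2 fold change stayed within 0.25 of 0 for 31.

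**Figure D1:**
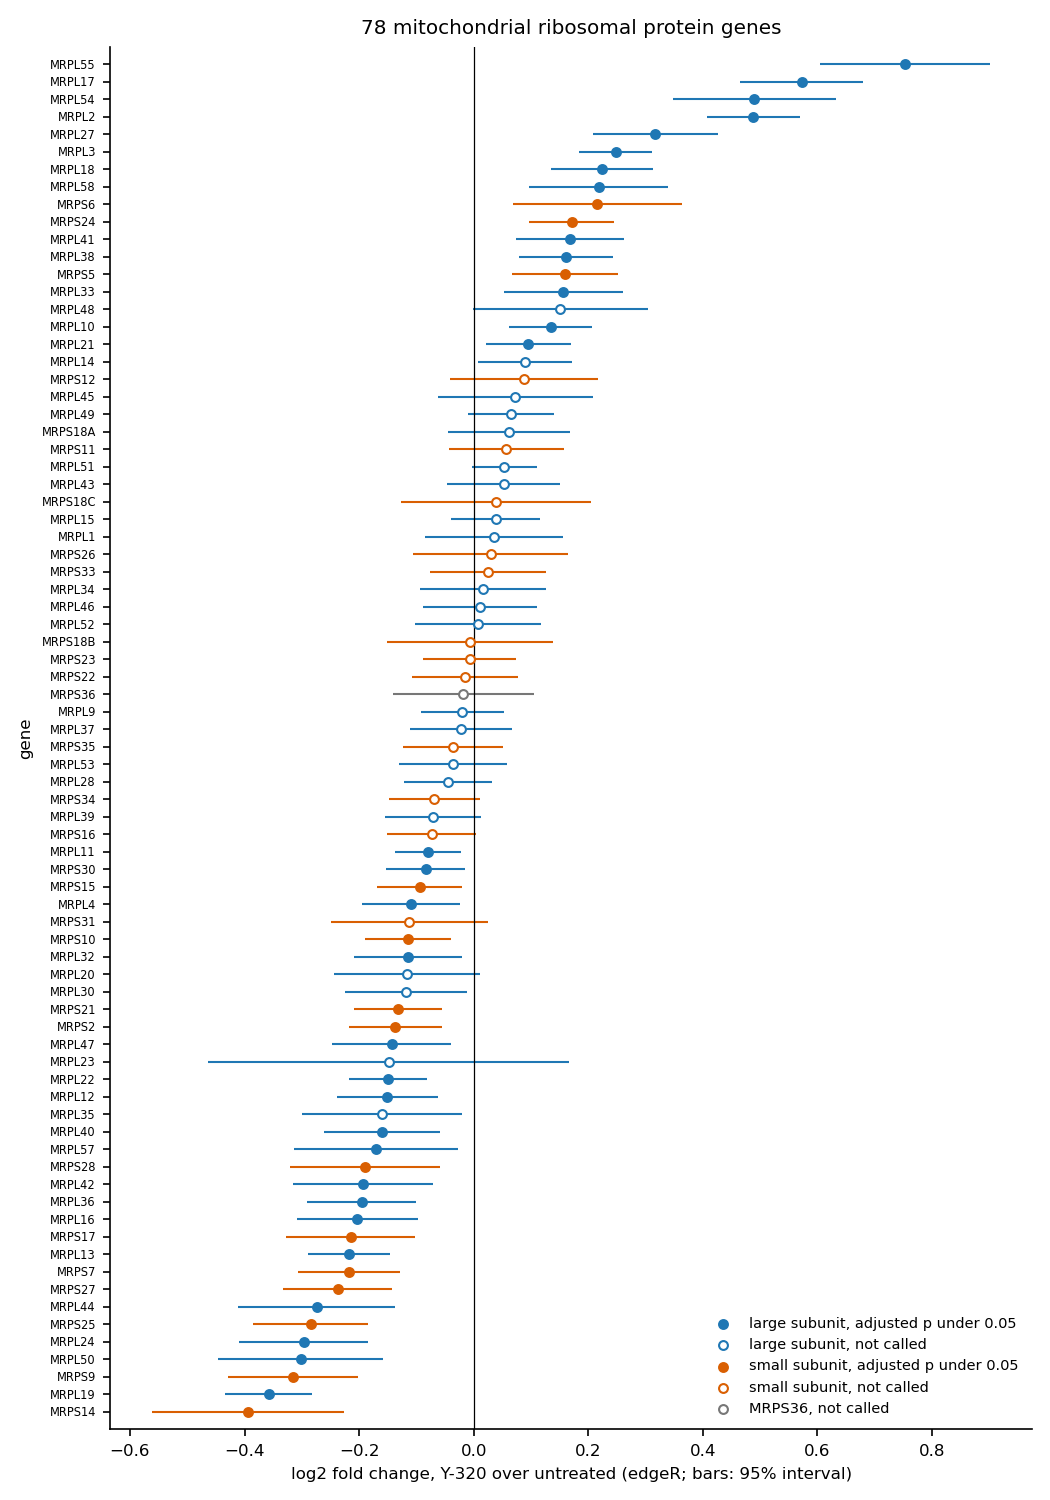
Log2 fold change of each MRP gene with Y-320 over untreated (x axis) with its 95% interval, genes ordered by size on the y axis, blue for the large subunit, orange for the small subunit, grey for MRPS36, filled where the adjusted p was under 0.05 (n = 3 libraries per group). Changes run from -0.39 (MRPS14) to 0.75 (MRPL55), and the 8 highest belong to the large subunit.

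The sequences just upstream of the start sites are shown for the 3 members with the largest rises and the 2 with the largest falls, because promoters of MRP genes are known to be rich in sites for factors that serve nuclear genes of mitochondria. Each line gives 150 bases before the RefSeq start on GRCh38.p14, read 5′ to 3′ on the strand of the gene, with capitals where the letters of the NRF1 motif (GCGCATGC) or the ETS motif (CCGGAAG) occur on either strand.
MRPL55, chr1:228109300-228109449, minus strand: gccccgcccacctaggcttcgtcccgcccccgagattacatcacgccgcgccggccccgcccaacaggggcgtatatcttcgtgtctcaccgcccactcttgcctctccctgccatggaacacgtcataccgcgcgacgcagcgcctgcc
MRPL17, chr11:6683341-6683490, minus strand: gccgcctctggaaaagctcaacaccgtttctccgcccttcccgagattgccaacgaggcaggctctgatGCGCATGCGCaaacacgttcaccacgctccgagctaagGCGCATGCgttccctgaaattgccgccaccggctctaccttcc
MRPL54, chr19:3762532-3762681, plus strand: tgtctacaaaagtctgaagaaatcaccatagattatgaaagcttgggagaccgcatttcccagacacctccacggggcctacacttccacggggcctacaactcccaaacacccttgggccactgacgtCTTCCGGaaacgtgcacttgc
MRPS14, chr1:175023426-175023575, minus strand: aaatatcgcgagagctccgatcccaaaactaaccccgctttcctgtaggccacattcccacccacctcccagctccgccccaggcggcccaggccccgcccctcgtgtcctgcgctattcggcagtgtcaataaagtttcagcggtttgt
MRPL19, chr2:75646633-75646782, plus strand: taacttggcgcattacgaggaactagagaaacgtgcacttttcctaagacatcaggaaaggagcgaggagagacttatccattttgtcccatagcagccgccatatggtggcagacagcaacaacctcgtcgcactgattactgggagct

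MRPL17 held the NRF1 letters at 3 starts, 2 of them overlapping on opposite strands. MRPL54 held the ETS letters once on the opposite strand. MRPL55, MRPL19 and MRPS14 held neither in these 150 bases, and only that these letters are missing from this window can be read from it.

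The largest rises were in the large subunit. MRPL55, a large subunit protein with a bacterial counterpart, was at 15.3, 18.7 and 16.8 CPM in untreated and 29.0, 28.9 and 27.6 CPM in Y-320 libraries. The groups lay far apart, and the gene rose by 0.75 ± 0.07 on the log2 scale (SE; adjusted p = 5.86e-06), a 1.69-fold change. MRPL17, which lies near the exit of the peptide tunnel in its bacterial form, was at 36.4, 36.2 and 32.3 CPM untreated and 52.7, 50.9 and 52.3 CPM with Y-320. Its log2 fold change was 0.57 ± 0.05 (adjusted p = 4.11e-06), and every Y-320 library exceeded every untreated one. MRPL54, a protein added in mitochondria, was lower in level, at 11.8, 11.4 and 12.1 CPM untreated and 17.4, 16.1 and 16.02 CPM with Y-320. It rose by 0.49 ± 0.06 (adjusted p = 9.48e-05), again without overlap.

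MRPL2, whose bacterial counterpart stands by the peptidyl transferase centre, was at 40.8, 41.0 and 42.6 CPM untreated and 59.6, 57.0 and 57.9 CPM with Y-320. Its log2 fold change of 0.49 ± 0.04 had a narrow error (adjusted p = 1.53e-06), but 32.8% of its 31-base words also occur in transcripts of other annotated genes. MRPL27, whose bacterial counterpart reaches into the same centre, was at 25.005, 23.4 and 22.7 CPM untreated and 30.4, 29.2 and 29.0 CPM with Y-320. It rose by 0.32 ± 0.05 (adjusted p = 0.000325). MRPL3, in which mutations cause a mitochondrial cardiomyopathy, was more abundant, at 104.7, 102.4 and 100.1 CPM untreated and 123.6, 120.0 and 121.1 CPM with Y-320 (log2 fold change 0.25 ± 0.03, adjusted p = 4.31e-05). MRPL18, a protein of the central protuberance, was at 65.6, 67.4 and 64.8 CPM untreated and 81.4, 74.7 and 74.96 CPM with Y-320, a rise of 0.22 ± 0.04 (adjusted p = 0.000841). MRPL58, also called ICT1, a peptidyl-tRNA hydrolase that rescues stalled mitochondrial ribosomes and is built into the large subunit, was at 30.6, 31.03 and 27.7 CPM untreated and 36.4, 34.3 and 33.1 CPM with Y-320 (0.22 ± 0.05, adjusted p = 0.00699). None of these 8 genes overlapped between groups, and DESeq2 also called them. Both were likely from the start, since the genes were picked by size in the same libraries. Over all genes tested, 29.8% lay above without overlap.

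**Figure D2:**
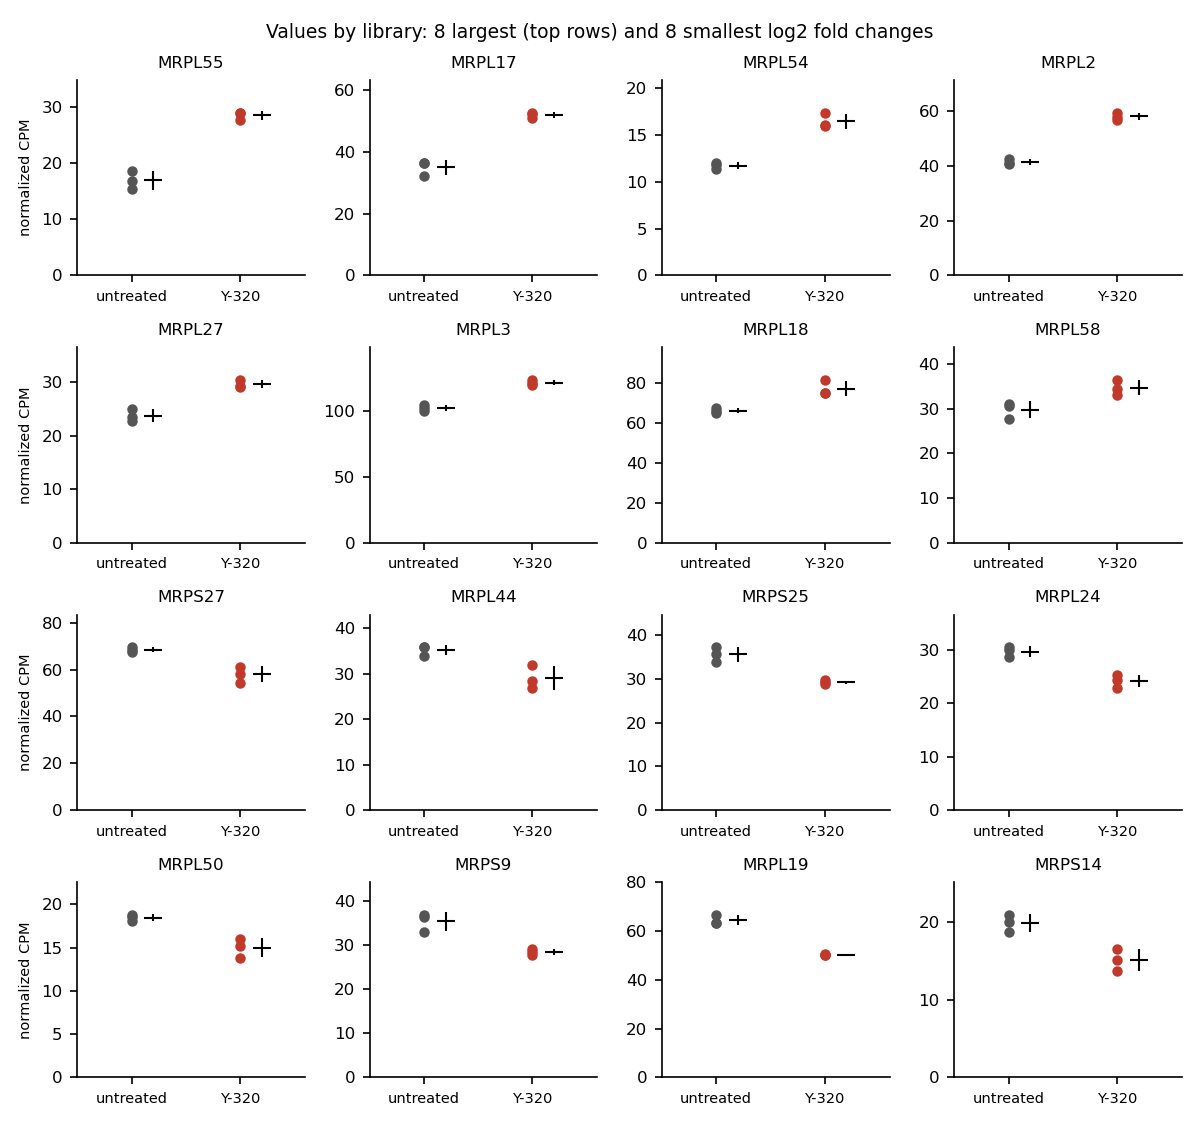
Normalized CPM (y axis, from 0) in each of 3 untreated (grey) and 3 Y-320 libraries (red) for the 8 MRP genes with the largest (upper 8 panels) and the 8 with the smallest log2 fold changes (lower 8 panels), with the mean and SD as bars. No panel shows an overlap between the groups, in genes picked by size from these same libraries.

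The largest falls were shared between the subunits and stayed smaller than the largest rises. MRPS14, a small subunit protein with a bacterial counterpart, was at 20.0, 20.96 and 18.7 CPM untreated and 15.1, 16.5 and 13.7 CPM with Y-320. It fell by 0.39 ± 0.08 on the log2 scale (adjusted p = 0.00132), or 23.9% below untreated. MRPL19, a large subunit protein with a bacterial counterpart, was at 63.4, 66.7 and 63.3 CPM untreated and 50.2, 50.1 and 50.6 CPM with Y-320, a fall of 0.36 ± 0.03 (adjusted p = 1.07e-05). The Y-320 libraries of MRPL19 had an SD of only 0.263 CPM. MRPS9, another small subunit protein with a bacterial counterpart, was at 36.9, 36.3 and 33.0 CPM untreated and 29.1, 27.8 and 28.4 CPM with Y-320, and fell by 0.32 ± 0.05 (adjusted p = 0.00043).

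MRPL50, a protein added in mitochondria, went from 18.5 ± 0.396 to 14.97 ± 1.11 CPM (SD, n = 3), and MRPL24, with a bacterial counterpart, from 29.6 ± 0.988 to 24.1 ± 1.195 CPM. Each fell by 0.30 (adjusted p = 0.0028 and 0.000646). MRPS25, a small subunit protein that bacteria lack, went from 35.6 ± 1.67 to 29.3 ± 0.366 CPM and fell by 0.28 ± 0.04 (adjusted p = 0.000379), with 44.7% of its words shared, mostly with the neighbouring gene NR2C2. MRPL44, a protein related to ribonucleases and a cardiomyopathy gene, went from 35.2 ± 1.09 to 29.1 ± 2.63 CPM and fell by 0.27 ± 0.06 (adjusted p = 0.00369). MRPS27, a pentatricopeptide repeat protein of the small subunit, went from 68.4 ± 1.05 to 58.0 ± 3.43 CPM and fell by 0.24 ± 0.04 (adjusted p = 0.000961). All of these 8 members with the largest falls were called by DESeq2 too, on the same counts by which they were picked.

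Calls were counted by subunit, beside 26.2% higher and 25.4% lower over all genes tested. In the large subunit 13 of 51 members rose (25.5%, near that of all genes), 17 fell (33.3%) and 21 were not called, with a median log2 fold change of -0.02. In the small subunit 3 of 26 rose (11.5%), 11 fell (42.3%) and 12 were not called, with a median of -0.07. The difference between these counts was not tested. The small subunit genes that rose were MRPS6 (0.22), MRPS24 (0.17) and MRPS5 (0.16), which all have bacterial counterparts. The summed CPM of the small subunit members was 1307, 1307 and 1266 in untreated and 1259, 1242 and 1239 in Y-320 libraries, a ratio of 0.964, with no overlap. For the large subunit the sums were 2655, 2679 and 2642 CPM untreated and 2721, 2665 and 2662 CPM with Y-320, and these overlapped. The sum over all 78 members was 3976 ± 39.8 CPM in untreated cells and 3954 ± 42.3 CPM after Y-320 (SD, n = 3), a difference smaller than the spread. The ratio of the large to the small subunit sum was 2.03, 2.05 and 2.09 in untreated and 2.16, 2.15 and 2.15 in Y-320 libraries, so the groups did not overlap. With 3 libraries against 3, a two-sided exact permutation test of such a ratio cannot go below 0.1, and none was run. The sums and the ratio leave out 5 mitochondrial ribosome proteins with other names, described below, most of them of the small subunit. Those 5 together went from 441.7 ± 2.89 to 465.4 ± 14.1 CPM (SD, n = 3). The small subunit fall and the ratio therefore hold for members chosen by symbol, not for whole subunits.

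By ancestry, 12 of 46 members with bacterial counterparts rose (26.1%) and 20 fell (43.5%), and 4 of 31 members added in mitochondria rose (12.9%) and 8 fell (25.8%). The share of rises in the former and of falls in the latter were near those of all genes tested (26.2% and 25.4%), and the difference between the classes was not tested. In the small subunit, bacterial ancestry went with 3 rises and 9 falls of 16, whereas of the 10 members added in mitochondria 2 fell and none rose (0 higher with edgeR, also at an unadjusted p under 0.05, and 0 with DESeq2 or limma-voom). In the large subunit 9 of 30 members of bacterial ancestry rose and 11 fell, and 4 of 21 members added in mitochondria rose and 6 fell. The medians of these 4 classes were -0.10, -0.03, -0.06 and 0.01 in the order given.

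Members with known roles were read one by one. In the stalk of the large subunit, which recruits translation factors, MRPL10 rose from 71.8 ± 1.41 to 78.8 ± 2.07 CPM (log2 fold change 0.13 ± 0.03, adjusted p = 0.00584), MRPL12 fell from 33.2 ± 0.347 to 29.9 ± 0.744 CPM (-0.15 ± 0.04, adjusted p = 0.00875), and MRPL11 fell from 156.3 ± 2.77 to 147.9 ± 1.199 CPM (-0.08 ± 0.03, adjusted p = 0.0247). MRPL12 also binds the mitochondrial RNA polymerase. The calls of MRPL12 and MRPL11 were not made by DESeq2 (adjusted p = 0.111 and 0.0841), and that of MRPL11 was lost without untreated replicate 2 (adjusted p = 0.0876) or untreated replicate 3 (0.0636) and without Y-320 replicate 1 (0.0522), 2 (0.0894) or 3 (0.0508). The MRPL11 call was also lost without a filter (0.0549). Of the words of MRPL12, 68.5% also occur in a single gene that has no symbol, so its reads could be divided between the genes.

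MRPS12, the decoding-site protein whose bacterial form carries streptomycin resistance mutations, was at 14.4, 15.6 and 14.9 CPM untreated and 16.1, 15.97 and 15.6 CPM with Y-320. These overlapped narrowly, and the log2 fold change of 0.09 had an interval from -0.04 to 0.22 (adjusted p = 0.243). A row without a gene name held the same values. Summed with that row, MRPS12 stood at 29.9 ± 1.18 CPM untreated and 31.7 ± 0.568 with Y-320 (SD, edgeR adjusted p = 0.124). MRPL45, which ties the ribosome to the inner membrane, was at 46.3 ± 3.71 and 48.7 ± 2.88 CPM (0.07, interval -0.06 to 0.21). MRPS16 and MRPS22, both genes of mitochondrial disease, had log2 fold changes of -0.07 (interval -0.15 to 0.00) and -0.01 (-0.11 to 0.08). Neither MRPS16 nor MRPS22 was called, but with upper-quartile scaling edgeR called MRPS16 lower (-0.10, adjusted p = 0.0313).

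The proteins related to bacterial S18 form a set of 3, of which MRPS18A sits in the large subunit. MRPS18A, MRPS18B and MRPS18C had log2 fold changes of 0.06 (interval -0.04 to 0.17), -0.01 (-0.15 to 0.14) and 0.04 (-0.13 to 0.21), and none was called. MRPS30, a large subunit protein added in mitochondria, went from 109.4 ± 2.90 to 103.2 ± 2.09 CPM (-0.08, adjusted p = 0.0429), a call that DESeq2 did not make (0.136) and that was lost without untreated replicate 1 (0.123) or 2 (0.106) and without Y-320 replicate 1 (0.0571), 2 (0.161) or 3 (0.067). The MRPS30 call was also lost with library sizes only (0.0814) and without a filter (0.0764). The members nearest to 0 were MRPS18B, the small subunit protein MRPS23 (55.6 ± 1.86 and 55.3 ± 1.16 CPM) and the large subunit protein MRPL52 (29.2 ± 1.48 and 29.4 ± 0.93 CPM), and their signs turned with the scaling. MRPS36 had a log2 fold change of -0.02 (adjusted p = 0.81).

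Levels per length covered a wide range. Per kilobase of the canonical transcript, the members' untreated means ran from 2.11 to 169 CPM, with a median of 34.3. The highest was MRPS24, a small subunit protein at the entry of the mRNA channel, at 169 ± 6.54 CPM per kilobase untreated and 190.2 ± 3.67 with Y-320, and it rose by 0.17 (adjusted p = 0.00153). MRPL51, a large subunit protein added in mitochondria, followed at 139.6 ± 1.27 CPM per kilobase untreated, and MRPL21 at 126.4 ± 3.43. The level ranges of the libraries did not overlap between these 3 in untreated cells. MRPL51 was not called (adjusted p = 0.107), and MRPL21 rose by 0.10 (adjusted p = 0.0346), a call that DESeq2 did not make (0.121) and that was lost without untreated replicate 1 (0.124), 2 (0.0511) or 3 (0.056) and without Y-320 replicate 2 (0.072) or 3 (0.123). The MRPL21 call was also lost with upper-quartile scaling (0.123).

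At the other end were MRPL23, a protein of the tunnel exit, at 5.87 ± 0.699 CPM per kilobase, MRPL50 at 5.54 ± 0.119 and MRPL42 at 2.11 ± 0.153, all untreated. MRPL23 and MRPL50 overlapped in level. MRPL42 stood at 32.8 CPM before division by length, and its canonical transcript is annotated as 15557 bases long, so its low place rests on that length. MRPL42 fell by 0.19 (adjusted p = 0.0136), a call lost with DESeq2 (0.051) and without untreated replicate 1 (0.0503) or 3 (0.0553). MRPL23 was the least abundant member, at 3.95 ± 0.471 CPM, and its interval from -0.46 to 0.17 was the widest.

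Levels of a few members were divided between rows. The table holds 6 rows with no gene name whose values equal those of MRPS18B within 2%, and 1 such row each for MRPS12 and MRPL46. Summed with these rows, MRPS18B stood at 57.7 rather than 8.24 CPM per kilobase untreated, and its log2 fold change was 0.00 in size (adjusted p = 0.916). MRPS12 and MRPL46, summed likewise, stood at 31.2 and 62.3 CPM per kilobase untreated, and neither was called (adjusted p = 0.124 and 0.652). With these rows added, the ratio of the large to the small subunit sum was 1.95 ± 0.03 untreated and 2.04 ± 0.01 with Y-320 (SD, n = 3), again without overlap. The 79 rows of MRP pseudogenes held 294 to 338 counts per library, at most 0.389% of the members' counts.

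**Figure D3:**
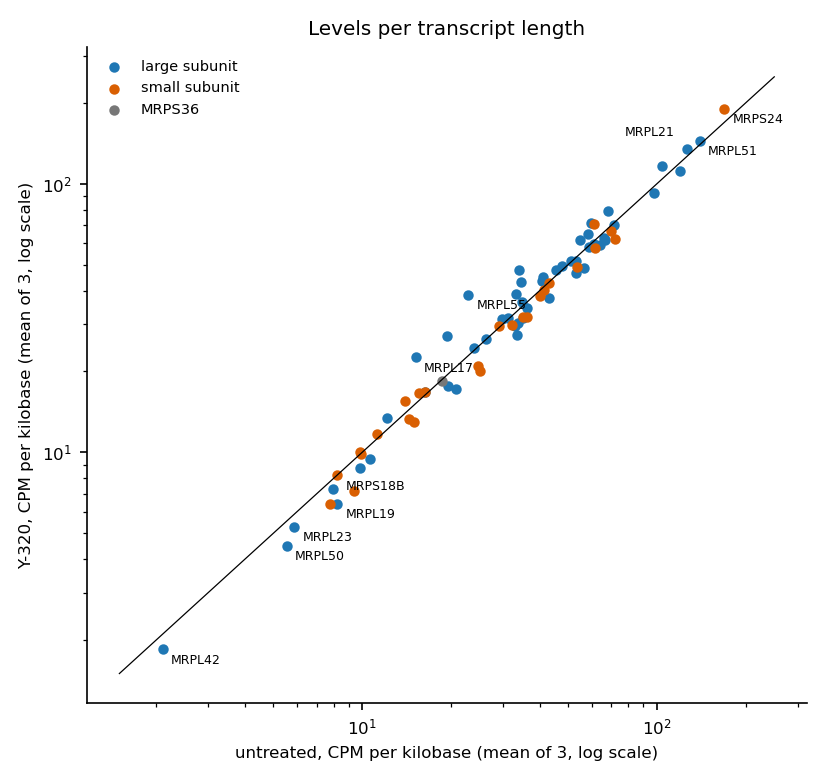
Mean level of each MRP gene per kilobase of its canonical transcript in untreated (x axis) and Y-320 cells (y axis), both in CPM per kilobase on log scales, with the line of equality and 3 libraries per group. Points follow the line from MRPL42 at 2.11 to MRPS24 at 169, with MRPL55 and MRPL17 above it.

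Members that rose and fell also differed in length and base composition. The 16 called higher had a median canonical transcript of 912.5 bases and 52.7% GC, the 28 called lower 1436 bases and 46.6% GC, and the 34 not called 1269.5 bases and 50.9% GC. The same direction was seen over all genes tested, where those called higher had a median GC of 51.5% and those called lower 46.7%. Spearman's rho between log2 fold change and GC was 0.33 over the 78 members and 0.12 over 15323 genes, and with length it was -0.29 and -0.05. These are descriptions across genes that share the same libraries, and the part of GC or length in the calls was not tested.

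Many MRP genes start near a neighbour that is read in the other direction. Whether such neighbours share a promoter was not tested. A protein-coding gene on the opposite strand started within 1000 bases for 26 of 78 members (33.3%), compared with 9.51% of 20046 protein-coding genes in the annotation. All 26 partners were tested, and edgeR called 15 of the 26 members, 10 of the 26 partners (38.5%) and both genes in 6 pairs (23.1% of 26). MRPS11 and MRPL46 are neighbours of each other, so their pair enters these 26 from both sides. Over all genes tested 51.5% were called in either direction, a larger share than that of the partners, and nothing is read from the number of pairs. In each of these 6 pairs the genes moved the same way. MRPL2 and KLC4, a kinesin light chain gene 197 bases away, rose by 0.49 and 0.80, and KLC4 was at 35.5, 36.9 and 36.2 CPM untreated and 63.7, 61.4 and 64.3 CPM with Y-320. MRPL54 and APBA3, an adaptor protein gene 990 bases away, rose by 0.49 and 0.67. MRPL27 rose by 0.32 and EME1, a DNA endonuclease subunit starting 45 bases away, by 0.27. MRPL21 and the helicase gene IGHMBP2 rose by 0.10 and 0.11.

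The pairs that fell were MRPS27 with PTCD2, another mitochondrial pentatricopeptide repeat gene (-0.24 and -0.37), and MRPL47 with NDUFB5, a subunit of respiratory complex I (-0.14 and -0.18). Other pairs did not move together. MRPL51 had a log2 fold change of 0.05 (adjusted p = 0.107), whereas its neighbour NCAPD2, a condensin subunit, fell from 426, 433 and 440 to 302, 302 and 301 CPM (-0.52, adjusted p = 2.98e-08). Of the words of MRPL51, 24.6% also occur in NCAPD2, so reads could be divided between these genes. MRPL43 had a value of 0.05 (adjusted p = 0.356), and its neighbour TWNK, the mitochondrial DNA helicase, fell by 0.19 (adjusted p = 0.0294). MRPL13 and MRPS7 each fell by 0.22, while MTBP (0.01) and GGA3 (0.04) were not called. MRPS11 and MRPL46, members of different subunits whose starts lie 320 bases apart, had log2 fold changes of 0.06 and 0.01 and were not called. Of the 26 members with a divergent neighbour 6 rose (23.1%) and 9 fell (34.6%), and of the 52 without one 10 rose (19.2%) and 19 fell (36.5%). Over all genes tested 26.2% were called higher and 25.4% lower, and the difference between the classes was not tested. Counting is not stated to use strand, so reads from genes that overlap on opposite strands cannot be told apart.

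**Figure D4:**
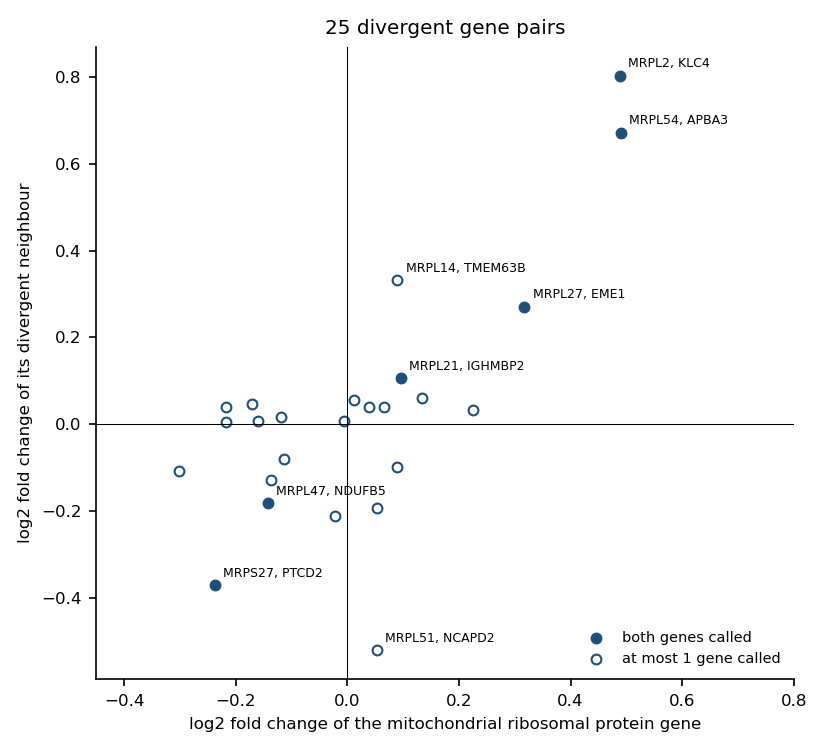
Log2 fold change with Y-320 of MRP genes (x axis) and of the protein-coding gene that starts within 1000 bases on the opposite strand (y axis), each pair 1 point, filled where both genes had an adjusted p under 0.05, with the pair of MRPS11 and MRPL46 drawn once. The 6 filled points lie in the upper right and lower left of the plot, and NCAPD2 lies at -0.52 opposite MRPL51 at 0.05.

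Promoter letters were counted in RefSeq windows from 250 bases before to 50 after the start, which were held for 69 of the 78 genes in 85 windows. Both strands were searched. ETS letters (CCGGAAG), the core read by GABP, a factor of nuclear genes for mitochondria, occurred in 38.8% of member windows, 12.9% of 21613 windows of protein-coding genes and 10.3% of all 35116 windows. YY1 letters (AAGATGG) occurred in 31.8%, 6.04% and 5.84%, and NRF1 letters (GCGCATGC) in 7.06%, 3.73% and 3.05%. E-box letters (CACGTG), the site of MYC and its partners, occurred in 10.6%, 8.35% and 7.26%, and TATA letters (TATAAA) in 3.53%, 9.45% and 11.5%. Of the 69 genes, 46 held ETS, YY1 or NRF1 letters. ETS letters stood in the windows of 7 of 13 members that rose, 5 of 26 that fell and 18 of 30 that were not called. YY1 letters stood in 2 of 13, 12 of 26 and 10 of 30. On the sense strand YY1 letters occurred 22 times, of which 17 began after the start site. The letters say nothing of binding, and their relation to the calls was not tested.

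Genes that serve the same ribosome were also mixed, and their counts stand beside 26.2% higher and 25.4% lower over all genes tested. Of 5 mitochondrial ribosome proteins with other names, the small subunit protein AURKAIP1 rose from 96.3 ± 2.06 to 129 ± 3.34 CPM (0.42, adjusted p = 1.32e-06) and GADD45GIP1, a large subunit protein, by 0.09 (adjusted p = 0.0429), while the small subunit proteins PTCD3 and CHCHD1 fell by 0.22 (adjusted p = 0.000357) and 0.16 (adjusted p = 0.00981). DESeq2 called 1 of the 5 higher and 1 lower. The 2 rises also became 1 with upper-quartile scaling, without untreated replicate 2 or 3 and without Y-320 replicate 1 or 2. DAP3, a GTP-binding small subunit protein, was at 86.4 ± 1.76 and 87.4 ± 4.90 CPM (0.02, adjusted p = 0.767). Of 30 assembly and rRNA modification factors 3 rose (10.0%), 10 fell (33.3%) and 17 were not called (median -0.03). The methyltransferases NSUN4 (0.47) and MRM2 (0.19) rose, and C1QBP (-0.50), a matrix protein, and MTERF3 (-0.42) fell. Of 17 translation factors 3 rose (17.6%) and 6 fell (35.3%, median -0.07), with the initiation factor MTIF3 at 0.24 and the rescue factor MTRFR at 0.17, and the elongation factor GUF1 at -0.23 and the formyltransferase MTFMT at -0.22. DESeq2 called 0 of these 17 higher (1 at an unadjusted p under 0.05), limma-voom called 3, and edgeR called 1 without untreated replicate 2 or without Y-320 replicate 1.

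Of 17 genes of mitochondrial transcription and RNA maturation 4 rose (23.5%) and 10 fell (58.8%, median -0.16). FASTK rose by 0.33 and POLRMT, the mitochondrial RNA polymerase, by 0.25, whereas TFAM, which packages mitochondrial DNA and starts its transcription, fell from 66.7 ± 2.93 to 47.7 ± 3.31 CPM (-0.48, adjusted p = 2.46e-05). PRORP, a subunit of mitochondrial RNase P, fell by 0.36. Of 10 nuclear regulators PPRC1 rose by 0.46 (adjusted p = 7.92e-06) and MYC by 0.20 (adjusted p = 0.00227), and GABPA fell by 0.35 (adjusted p = 0.00011) and GABPB1 by 0.20 (adjusted p = 0.0109). GABPA and GABPB1 are the subunits of GABP. The values of NRF1 (-0.14), YY1 (0.06), ESRRA (0.03), SP1 (-0.05), PPARGC1A (-0.32) and PPARGC1B (-0.21) did not pass the test, and PPARGC1A was at only 2.44 CPM untreated. DESeq2 called 1 of the 10 regulators lower.

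The mRNAs that mitochondrial ribosomes translate are the transcripts of mitochondrial DNA. Of the 13 protein-coding genes of mitochondrial DNA, MT-CO3 fell from 1809 ± 53.1 to 1538 ± 69.3 CPM (-0.23, adjusted p = 0.000159) and MT-CYB from 1058 ± 7.17 to 934.6 ± 44.1 CPM (-0.18, adjusted p = 0.00067). The other 11 were not called, with values from -0.04 to 0.08, and the median over 13 was 0.01. None was called higher by edgeR (2 at an unadjusted p under 0.05) or limma-voom, whereas DESeq2, library sizes only, the fit without a filter and the fit with a replicate block each called 2 higher, and without Y-320 replicate 2 edgeR called 5 higher. Mitochondrial rRNAs were not analysed here.

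Ribosomal proteins of the cytosol build the other ribosome of the cell. Of 80 cytosolic ribosomal protein genes 4 rose (5.0%), 23 fell (28.8%, against 25.4% of all genes tested) and 53 were not called, with a median of -0.04 and a range from -0.25 (RPS26) to 0.14 (RPS21). RPL10 rose by 0.13 and RPL22 fell by 0.16. The count of falls depended on the scaling, with 43 after upper-quartile scaling, and on a single library, with 39 without untreated replicate 1. Over all genes 28.6% were called lower after upper-quartile scaling and 23.1% without untreated replicate 1. The rises numbered 2 after upper-quartile scaling and without untreated replicate 1 or Y-320 replicate 2 or 3. Those fits called 23.2% to 24.0% of all genes higher. Their summed level was 63727 ± 1334 CPM untreated and 61943 ± 428.1 CPM with Y-320.

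**Figure D5:**
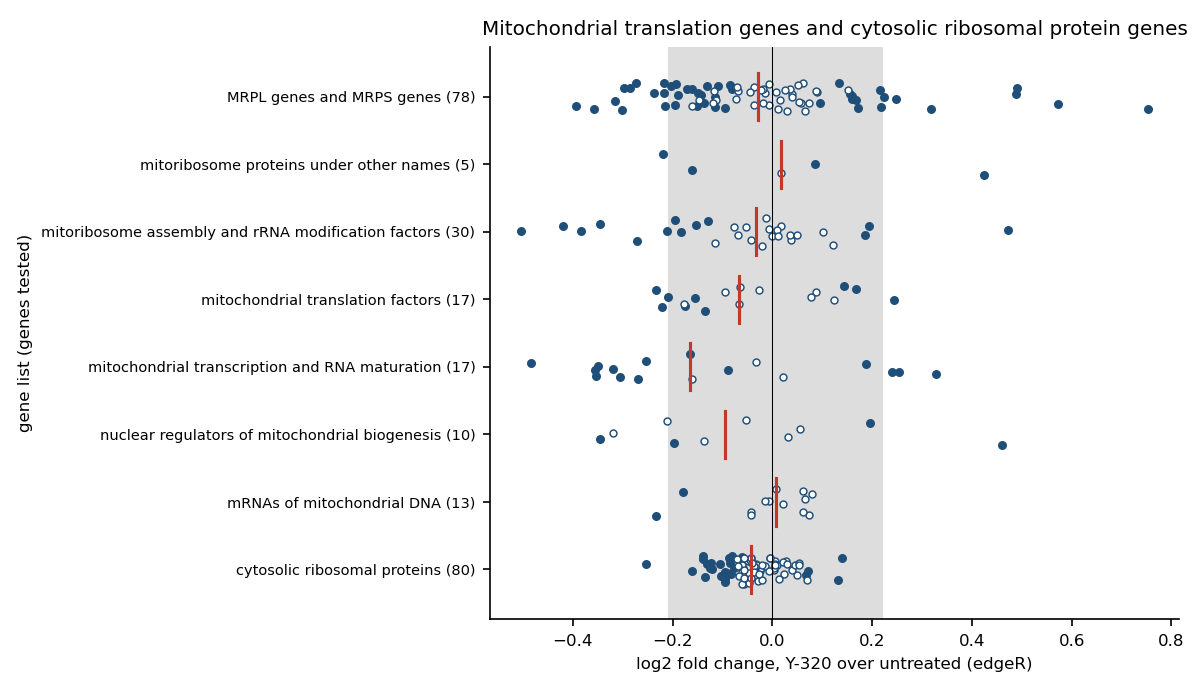
Log2 fold change with Y-320 (x axis) of each tested gene in the MRP set and 7 related lists (y axis, number tested in brackets), filled where the adjusted p was under 0.05, with list medians in red and the quartiles of all genes tested as a grey band. The medians of the lists lie between -0.16 and 0.02, and the band runs from -0.21 to 0.22.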

How the data were processed

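HDQ-P1 total RNA was sequenced on an Illumina instrument by the authors, who deposited estimated counts per Ensembl gene without normalization. The submitters' processing notes name kallisto 0.46.1, and the study names hg38; the Ensembl release is not given in the sources used here. Of 40295 rows, 35390 were matched to a gene name through GENCODE release 44, and rows without a name stayed in the fit. The deposited expected counts were rounded to whole numbers, filtered with filterByExpr (minimum count 10), scaled by TMM and tested with edgeR 4.0.16 (R 4.3.3), Y-320 against untreated, with 3 libraries each and adjustment over all 16580 genes tested. The procedure was run on simulated data in which 200 genes were given a change. It recovered 47.5% of changes of 0.25 on the log2 scale, 70% of those of 0.5 and 87.9% of those of 1. Of its calls, 5.56% were false. In the data 51.5% of genes were called, far more than were changed in the simulation, so these shares need not hold there. DESeq2 1.42.0 and limma 3.58.1 (voom) were alternatives, as were other scalings, filters, thresholds, rounding, summing with pseudogenes, members with at most 10% of words shared, a replicate block and leaving out each library. Summing rows of equal values was chosen after seeing the data. Lengths and GC are those of canonical transcripts, and shared words are 31-base words found on either strand in another annotated gene. Promoters are from RefSeq (GRCh38.p14), and 9 members had none.

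Members and lists were chosen with earlier results of these data known. Named were the 8 largest and 8 smallest log2 fold changes, the 3 nearest 0, the 3 highest and 3 lowest levels per kilobase, members with copies, members fixed by role, and, of other lists, all genes of lists of up to 10 and at most 4 called genes of longer lists. MRPL57, MRPS6, MRPS5, MRPS36, MRPL13, MRPS7, MRPL43, MRPS11 and MRPL47 with their neighbours were named after their values were seen. Depth ranged from 21045401 to 22740535 counts per library. Random counting error is part of the spread between libraries, but reads assigned to the wrong gene alike in every library are not. Over 10% of words were shared with other genes for 36 of the 78 members. Among the named members these include MRPS18A (52.9%), MRPS18C (43.0%), MRPS22 (42.0%), MRPS24 (28.6%), MRPL3 (23.7%) and MRPL19 (20.3%). An item of the marker list is not reported here.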

Additional observations from a re-analysis of the deposited data

How the results depend on the processing

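Calls were recomputed under each alternative, and no called member turned direction in any; 12 of the 16 higher and 14 of the 28 lower calls were kept in all 18 refits. Higher and lower counts were 18 and 23 with library sizes only, 15 and 33 with upper-quartile scaling, 16 and 24 without a filter, 13 and 17 at an adjusted p under 0.01, and 14 and 15 with DESeq2, which called 20.5% and 19.8% of all genes. With a change of at least 0.5 they were 2 and 0, and among the 42 members with at most 10% of words shared 10 and 16. Leaving out 1 library gave 13 to 16 higher and 20 to 25 lower, with 23.2% to 24.0% and 22.2% to 23.2% of all genes. The median was -0.0577 with upper-quartile scaling, which shifted all genes by -0.03, and -0.0477 to -0.0278 with 1 library left out. Signs near 0 turned: MRPS18B was 0.0066 and MRPS23 0.0057 with library sizes only, and MRPL52 was -0.0213 with upper-quartile scaling. With 1 library left out MRPS18B ranged from -0.031 to 0.0125, MRPS23 from -0.0277 to 0.0184, MRPL52 from -0.0312 to 0.0422, MRPS18C from -0.0103 to 0.1397 and MRPS22 from -0.0414 to 0.0197. The cause was not tested. Same-numbered libraries did not deviate together over all genes (correlations -0.01, 0.01 and 0.00), which gave no sign that the numbers pair them. A shared effect on few genes would not show in these correlations, so pairing is not excluded. A replicate block gave 16 higher and 27 lower (25.8% and 25.1% of all genes), and MRPS30 was not called (adjusted p = 0.0507). At this depth MRPL23, with 3.95 CPM, gave the widest interval.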
